A study of Homo sapiens with 2 samples.

Results

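The genes of the interferon response and of MHC class I antigen presentation were described in 2 RNA sequencing libraries of G401, a human line derived from a kidney rhabdoid tumor. The first, labelled G401-sg1-HOXB13, came from cells that carried a CRISPR guide against the homeobox gene HOXB13. The second, labelled G401-sg-control, came from cells with a control guide. Both cultures grew in RPMI with 15% FBS and were taken at 80% confluency, and the study asked what targeting HOXB13 does to the transcriptome. Whether the cells were a clone or a pool, and how Cas9 was delivered, is not given in the sources used here. The members were 45 genes taken by symbol from the 23452 genes with a value in both tables, and all 45 were present. With 1 library in each group, the spread between cultures could not be measured and no p-value is given. In what follows, a value with the HOXB13 guide is that of the first library and a value with the control guide that of the second.

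Interferons bind receptors at the cell surface, the receptors carry the Janus kinases JAK1 and TYK2 or JAK1 and a relative, and the kinases switch on STAT proteins. STAT2 joins IRF9 in a complex that binds the interferon-stimulated response element in the promoters of antiviral genes, while gamma interferon acts mainly through the gamma-activated site and IRF1. MHC class I molecules, a heavy chain with B2M and a peptide, show fragments of the cell's proteins to T cells, and several of the genes that build them also answer to interferon.

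In the HOXB13-guide library the transcripts of JAK1, of the peptide transporter subunit TAP1, of B2M and of the interferon-stimulated genes IFI6 and IFITM2 were at least 2-fold higher than in the control-guide library. The exonuclease gene ISG20 was at least 2-fold lower. In RNA from a whole culture, a difference in every cell and a difference in the share of cells that express a gene cannot be told apart. Levels are in FPKM, which scales reads by transcript length and by library size, and the ratio is log2 of FPKM + 1 with the HOXB13 guide over FPKM + 1 with the control guide. Of the 45 members, 32 reached 1 FPKM in either library. Among those 32, 5 were at least 2-fold higher, against 4.25% of all 11970 genes at that level. A further 1 of the 32 was at least 2-fold lower, against 4.51% of all genes. Ratios above 0 were found for 23 of the 32 members, against 45.6% of all genes, and the members' median log2 ratio was 0.33, against −0.05 over all genes. The members were chosen with earlier results of these data known, so these shares describe them and are no independent comparison. The list of 11 housekeeping genes also had a positive median, 0.25, with 8 members above 0. Its widest ratios were −0.81 for CHMP2A, 0.81 for REEP5, 0.80 for VCP and −0.73 for C1orf43. All ratios were also centred on that median, which moved the median of all genes to −0.31. Of the 32 members, 3 then stayed at least 2-fold higher (JAK1, TAP1 and IFI6), against 2.61% of all genes, and B2M and IFITM2 were short of it. A further 3 were then at least 2-fold lower (ISG20, HERC6 and IFI35), a share near the 9.11% of all genes. That centring also moved the share of higher genes among all genes past 2-fold to 22.2%, against 48.5% with the deposited values.

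**Figure D1:**
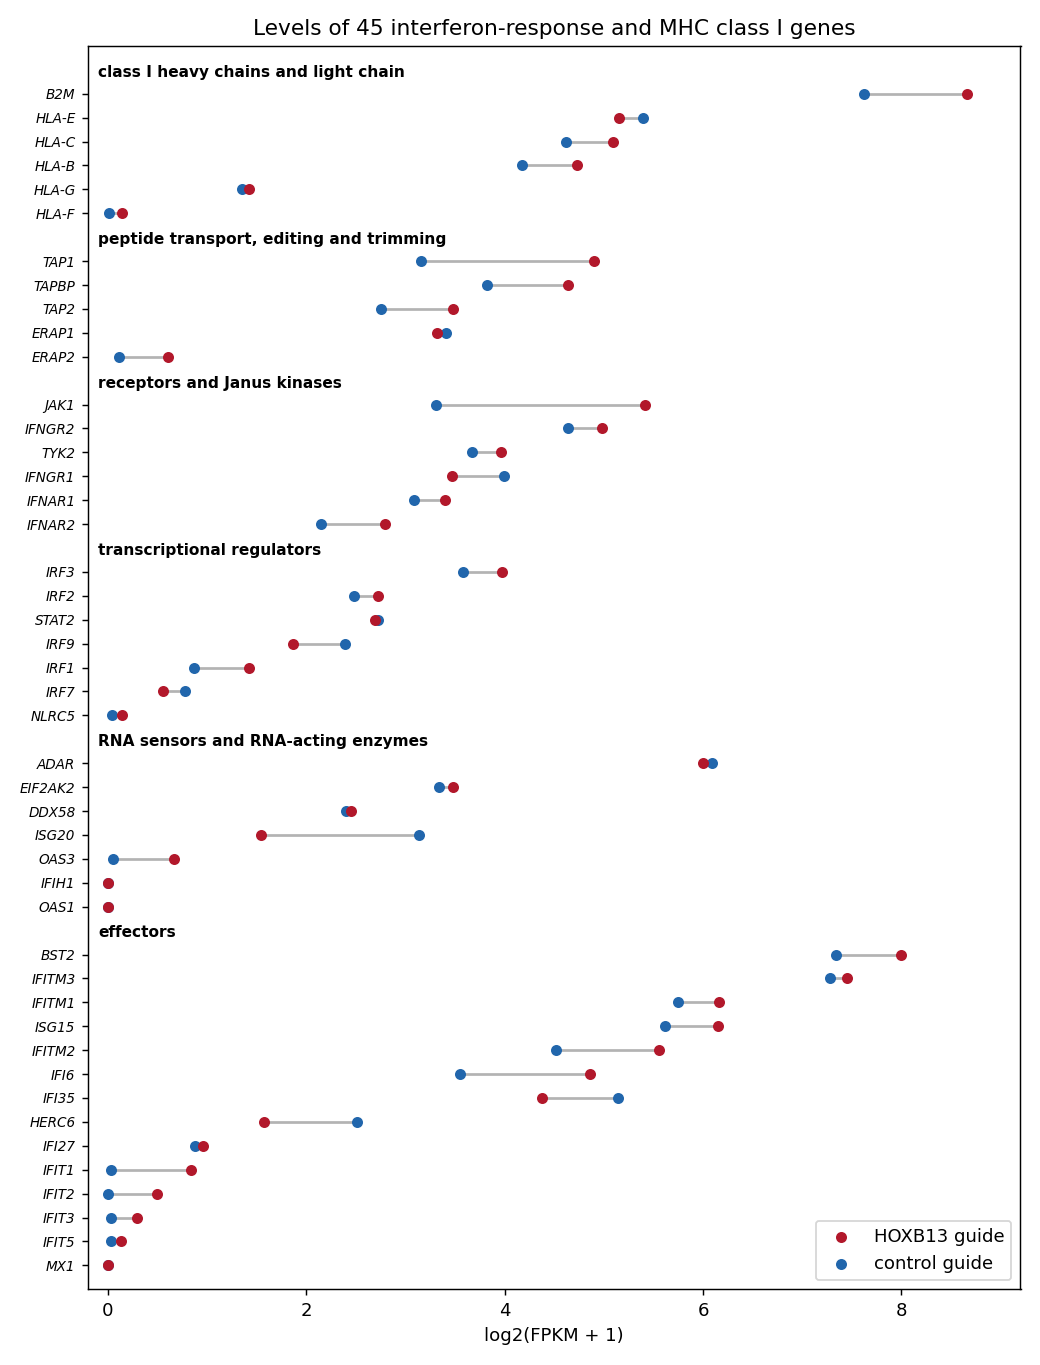
Level of each of the 45 members in the HOXB13-guide library (red) and the control-guide library (blue), on a log2(FPKM + 1) axis and grouped by role. Each point is 1 library; the widest gaps belong to JAK1, TAP1, ISG20 and IFI6, and IFIH1, OAS1 and MX1 lie at 0 in both.

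The promoters of the members are shown where the response element and the values meet. RefSeq windows on GRCh38.p14, from 250 bases before to 50 bases after the transcript start, were found for 37 of the 45 members. The core of the interferon-stimulated response element, GAAA and GAAA with any 2 bases between them on either strand, stood in the windows of 21 of the 37, or 56.8%, and of 4.38% of the 27305 genes with a window. The gamma-activated site TTCNNNGAA stood in 9 of the 37, or 24.3%, and in 9.38% of all genes, and in IFI27, IFITM1, MX1 and BST2 a match shares bases with a match of the first motif. Of the short sites bound by HOXB13, CAATAAA was in none of the 37 windows and in 4.93% of all genes, and TCGTAAA was in a window of JAK1 only and in 0.663% of all genes. A match is a run of letters and not a measured binding site. The members were chosen as interferon-response and class I genes, so a larger share with the response element core follows from that choice. It says nothing about the 2 libraries.

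Below are windows of 3 members that were at least 2-fold higher and hold the core, of IFIT1 as a classical target at low level, and of ISG20, which was lower. Not shown are the 3 windows of JAK1, the member with the highest ratio, and a further window of TAP1. None of these held the core. Capitals mark the matches to that core or its reverse complement, and B2M and TAP1 each hold a pair that shares bases.
TAP1, chr6:32853655-32853954, minus strand: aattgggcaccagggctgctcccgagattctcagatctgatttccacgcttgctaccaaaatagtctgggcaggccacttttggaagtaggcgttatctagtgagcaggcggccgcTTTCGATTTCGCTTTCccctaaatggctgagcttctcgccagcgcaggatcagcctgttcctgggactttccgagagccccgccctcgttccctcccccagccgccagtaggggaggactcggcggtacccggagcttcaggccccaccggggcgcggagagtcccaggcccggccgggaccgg
B2M, chr15:44711267-44711566, plus strand: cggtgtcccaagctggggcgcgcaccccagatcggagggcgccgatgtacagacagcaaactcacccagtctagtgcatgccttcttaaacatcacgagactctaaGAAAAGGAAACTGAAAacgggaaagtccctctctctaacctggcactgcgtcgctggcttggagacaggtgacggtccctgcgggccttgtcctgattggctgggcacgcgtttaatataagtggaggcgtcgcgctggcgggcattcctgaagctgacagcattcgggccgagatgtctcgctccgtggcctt
IFI6, chr1:27672143-27672442, minus strand: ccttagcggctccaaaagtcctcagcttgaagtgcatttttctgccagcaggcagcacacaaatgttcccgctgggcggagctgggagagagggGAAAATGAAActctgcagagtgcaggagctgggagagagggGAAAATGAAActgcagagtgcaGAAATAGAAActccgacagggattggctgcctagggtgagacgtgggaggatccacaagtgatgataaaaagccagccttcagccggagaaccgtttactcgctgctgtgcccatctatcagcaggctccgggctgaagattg
IFIT1, chr10:89392373-89392672, plus strand: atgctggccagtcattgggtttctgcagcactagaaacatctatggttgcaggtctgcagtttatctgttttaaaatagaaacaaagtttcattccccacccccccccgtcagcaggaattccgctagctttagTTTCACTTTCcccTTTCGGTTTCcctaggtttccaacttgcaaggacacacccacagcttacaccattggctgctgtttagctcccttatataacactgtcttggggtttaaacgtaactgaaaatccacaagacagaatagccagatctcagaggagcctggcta
ISG20, chr15:88638766-88639065, plus strand: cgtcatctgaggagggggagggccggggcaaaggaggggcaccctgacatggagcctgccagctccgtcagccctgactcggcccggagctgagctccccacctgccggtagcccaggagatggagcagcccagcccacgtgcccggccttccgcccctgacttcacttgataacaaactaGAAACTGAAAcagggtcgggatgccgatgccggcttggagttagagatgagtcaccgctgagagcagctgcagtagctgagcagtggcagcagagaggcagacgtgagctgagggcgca
Among the windows shown, the core stands before the start of genes that were higher and of the member with the lowest ratio. Of the 12 members at 1 FPKM or more with the core, 10 had ratios above 0, 3 passed 2-fold upward and 1 downward, and they had a median log2 ratio of 0.59. Of the 15 without it, 9 had ratios above 0 and 1 was at least 2-fold higher, with a median of 0.07. That last gene was JAK1. The other 5 of the 32 measured members had no window. Of these, 4 had ratios above 0 and 1, IFITM2, was at least 2-fold higher, with a median of 0.40. Over all genes at 1 FPKM or more, not split by the core, 4.25% were at least 2-fold higher and 4.51% lower. Their median log2 ratio was −0.05, and 45.6% had ratios above 0. Whether the core bears on the ratios was not tested.

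Of the 5 measured genes of the class I molecule, 4 had ratios above 0, and the light chain alone passed 2-fold. B2M, the shared light chain, lies on chromosome 15 from 45003685 to 45010357 in hg19, the build of the tables. It had 405 FPKM with the HOXB13 guide and 197 FPKM with the control guide, a log2 ratio of 1.04, just past 2-fold. Its neighbours SPG11, at 11.0 and 13.6 FPKM with the HOXB13 and control guides, and TRIM69, at 0.375 and 0.457, were not higher. These neighbours were named after their values were seen.

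The classical heavy chain HLA-B had 25.5 FPKM with the HOXB13 guide and 17.0 with the control guide (log2 0.56). HLA-C, the other classical chain on the list, had 33.2 and 23.6 FPKM with the HOXB13 and control guides (log2 0.47). HLA-E, whose product is read by receptors of natural killer cells, went the other way, at 34.6 FPKM with the HOXB13 guide and 41.1 with the control guide (log2 −0.24). None of these 3 passed 2-fold. HLA-G, best known from the placenta, had 1.68 FPKM with the HOXB13 guide and 1.55 with the control guide. HLA-F was near absent, at 0.105 FPKM with the HOXB13 guide and 0.00770 with the control guide. The 5 heavy chains summed to 95.1 FPKM with the HOXB13 guide and 83.3 with the control guide, so that B2M stood at 4.26 times their sum in the HOXB13-guide library and 2.36 times with the control guide. Heavy chain genes are near-identical over long stretches and vary between people, so the split of reads between them is uncertain. The 47 rows of members on alternative haplotypes of chromosome 6 were all listed at 0 in both libraries, as were all 1194 such rows of the tables, and the values above come from the reference chromosome.

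Of the 4 measured genes that transport, edit and trim peptides for class I, 3 had ratios above 0, and TAP1 alone passed 2-fold. TAP1 and TAP2 form the transporter that carries peptides into the endoplasmic reticulum. TAP1 had 28.8 FPKM with the HOXB13 guide and 7.92 with the control guide, a log2 ratio of 1.74, and 1.30% of all genes had a ratio as high. TAP2 had 10.1 FPKM with the HOXB13 guide and 5.73 with the control guide (log2 0.73). The transporter's subunits were therefore in unequal ratio: TAP1 stood at 2.84 times the level of TAP2 in the HOXB13-guide library and at 1.38 times with the control guide.

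TAPBP encodes tapasin, which holds the transporter to the class I molecule. It had 23.8 FPKM with the HOXB13 guide and 13.1 with the control guide (log2 0.82). The aminopeptidase ERAP1, which trims peptides in the endoplasmic reticulum, had 9.00 FPKM with the HOXB13 guide and 9.60 with the control guide (log2 −0.08). Its relative ERAP2 was low, at 0.522 FPKM with the HOXB13 guide and 0.0824 with the control guide.

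In the tables TAP1 lies on chromosome 6 from 32812986 to 32821748, on the minus strand in RefSeq, and the immunoproteasome gene PSMB9 starts 190 nt from its start, on the plus strand. These divergent neighbours were both higher: PSMB9, whose product makes peptides suited to class I, had 40.3 FPKM with the HOXB13 guide and 5.66 with the control guide, a log2 ratio of 2.63. On the other side of TAP1, PSMB8, a further immunoproteasome subunit, was near absent in both libraries, at 0.0930 FPKM with the HOXB13 guide and 0.0911 with the control guide; it was named after its values were seen. Of the 5 genes of the immunoproteasome and its activator, 4 reached 1 FPKM. Of these 4, 1 was at least 2-fold higher and none lower, against 4.25% and 4.51% of all genes. The activator subunits PSME1 and PSME2 had log2 ratios of 0.61 and 0.44, and the third catalytic subunit PSMB10 had −0.09. The response element core in the window of TAP1 begins 134 bases before its start, and the window of PSMB9 held neither that core nor TTCNNNGAA. The PSMB9 window begins at 32853942 in GRCh38, so the core of TAP1 lies outside it. That core still stands between the GRCh38 RefSeq starts of the 2 genes. The 190 nt above lie between their hg19 rows, which have other starts, so that gap does not place the core. Whether it acts on PSMB9 was not tested.

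**Figure D2:**
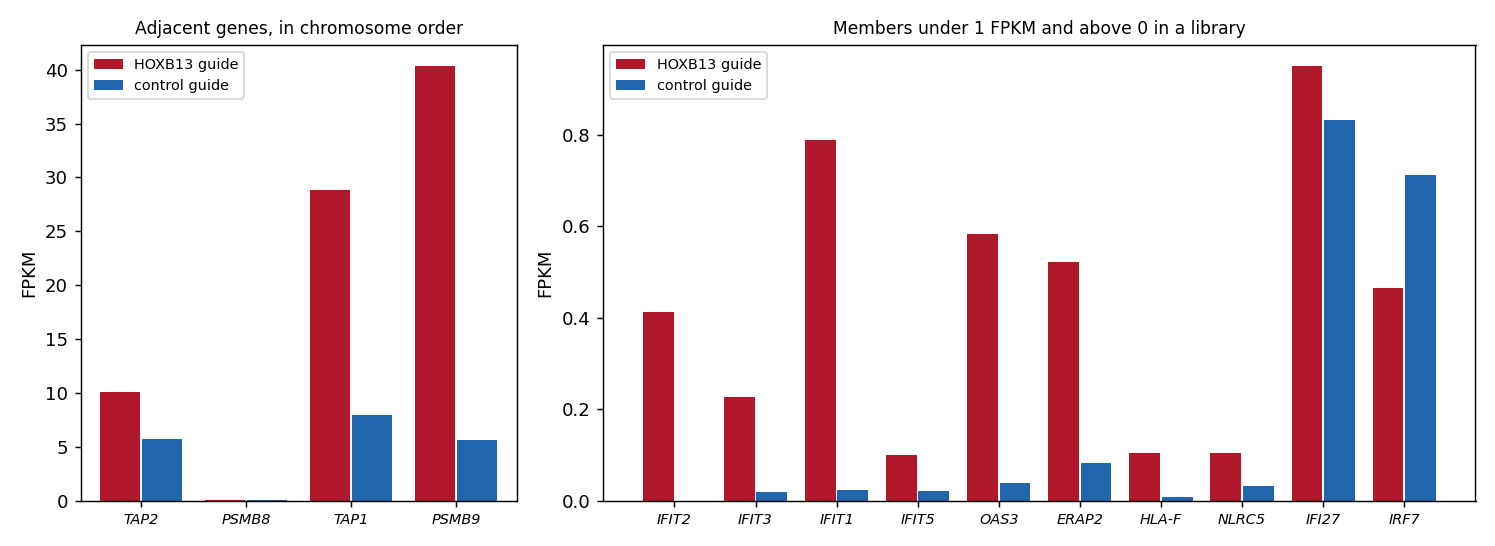
FPKM in the HOXB13-guide library (red bars) and the control-guide library (blue bars), 1 library each, on linear axes from 0. The left panel shows TAP2, PSMB8, TAP1 and PSMB9 in chromosome order, with PSMB9 at 40.3 and 5.66 FPKM and PSMB8 near 0; the right panel shows the 10 members under 1 FPKM that were above 0 in a library, with IRF7 alone lower in the HOXB13-guide library.

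Helpers of class I folding in the endoplasmic reticulum did not move together. Of 7 such genes 6 reached 1 FPKM. Of these 6, 1 was at least 2-fold higher and none lower, against 4.25% and 4.51% of all genes. The chaperone CALR was the higher gene, at 513 FPKM with the HOXB13 guide and 134 with the control guide. The folding sensor UGGT1 had a log2 ratio of 0.78. CANX, a membrane-bound relative of CALR, was at 151 FPKM with the HOXB13 guide and 233 with the control guide (log2 −0.62), and the chaperone HSPA5 had a log2 ratio of −0.46.

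Of the 6 receptor and kinase genes, 5 had ratios above 0, and JAK1 alone passed 2-fold. JAK1, the kinase shared by the receptors for type I and gamma interferon, lies on chromosome 1 from 65298906 to 65432187. It had 41.8 FPKM with the HOXB13 guide and 8.91 with the control guide, a log2 ratio of 2.11, and 0.886% of all genes had a ratio as high. Its overlapping neighbour RAVER2 had 9.38 FPKM with the HOXB13 guide and 7.45 with the control guide, and AK4, on the other side, had 15.8 and 13.2 FPKM with the HOXB13 and control guides; both were named after their values were seen. TYK2, the partner of JAK1 at the type I receptor, had 14.6 FPKM with the HOXB13 guide and 11.8 with the control guide (log2 0.29). JAK1 was therefore at 2.86 times the level of TYK2 in the HOXB13-guide library, and at 0.758 times with the control guide.

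The type I receptor subunits had ratios above 0 and under 2-fold. IFNAR1 had 9.52 FPKM with the HOXB13 guide and 7.51 with the control guide (log2 0.30). IFNAR2 had 5.93 FPKM with the HOXB13 guide and 3.44 with the control guide (log2 0.64). The gamma interferon receptor was split: IFNGR2, the signalling subunit, had 30.7 FPKM with the HOXB13 guide and 23.9 with the control guide (log2 0.35), whereas IFNGR1, which binds the ligand, had 10.0 FPKM with the HOXB13 guide and 15.0 with the control guide (log2 −0.53). Transcripts of both receptors and of both kinases were thus present in each library.

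The ligands were not. Of 21 interferon genes in the tables, 20 were listed at 0 in both libraries, and IFNW1, named after its value was seen, had 0.0324 FPKM with the HOXB13 guide and was listed at 0 with the control guide. The 12 leukocyte and endothelial markers, which would mark other cells in the culture, were all under 1 FPKM, and their highest values were 0.265 FPKM with the HOXB13 guide and 0.486 with the control guide.

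Of the 7 transcriptional regulators 5 reached 1 FPKM, and none was past 2-fold on the log2(FPKM + 1) scale. IRF1, a direct target of gamma interferon that acts on class I genes, had 1.68 FPKM with the HOXB13 guide and 0.820 with the control guide (log2 0.56). IRF3, which is switched on by sensors of viral nucleic acid, had 14.7 FPKM with the HOXB13 guide and 10.9 with the control guide (log2 0.40). IRF2, a relative of IRF1 that can oppose it, had 5.59 FPKM with the HOXB13 guide and 4.60 with the control guide (log2 0.24). The members of the complex that binds the response element had ratios below 0. STAT2 had 5.47 FPKM with the HOXB13 guide and 5.60 with the control guide (log2 −0.03). IRF9 had 2.65 FPKM with the HOXB13 guide and 4.26 with the control guide (log2 −0.53). IRF7, which amplifies interferon production, was low, at 0.466 FPKM with the HOXB13 guide and 0.712 with the control guide. NLRC5, the transactivator of class I genes, was near absent, at 0.104 FPKM with the HOXB13 guide and 0.0319 with the control guide.

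Of the sensors and enzymes that act on RNA, 4 were measured, and ISG20 alone passed 2-fold. ISG20, an exonuclease that degrades single-stranded RNA, lies on chromosome 15 from 89182039 to 89198879. It had 1.92 FPKM with the HOXB13 guide and 7.79 with the control guide, a log2 ratio of −1.59, and 1.46% of all genes had a ratio as low. With a pseudocount of 5 FPKM its ratio was −0.89, short of 2-fold. The editing enzyme ADAR, the highest of the group, had 63.1 FPKM with the HOXB13 guide and 67.2 with the control guide (log2 −0.09). EIF2AK2, the kinase PKR that halts translation on double-stranded RNA, had 10.2 FPKM with the HOXB13 guide and 9.13 with the control guide (log2 0.14). DDX58, the sensor RIG-I, had 4.46 FPKM with the HOXB13 guide and 4.30 with the control guide (log2 0.04). The related sensor IFIH1 and the oligoadenylate synthetase OAS1 were listed at 0 in both libraries, and their relative OAS3 had 0.582 FPKM with the HOXB13 guide and 0.0389 with the control guide.

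Of the 14 effectors 8 reached 1 FPKM; 6 of these had ratios above 0, 2 of them past 2-fold, and the other 6 effectors were under 1 FPKM. IFI6, a mitochondrial protein that limits apoptosis, had 28.0 FPKM with the HOXB13 guide and 10.7 with the control guide, a log2 ratio of 1.31. IFITM2, which blocks the entry of viruses from endosomes, had 46.1 FPKM with the HOXB13 guide and 21.9 with the control guide (log2 1.04). Its neighbours of the same family had smaller ratios. IFITM1 had 70.4 FPKM with the HOXB13 guide and 52.6 with the control guide (log2 0.41). IFITM3 had 174 FPKM with the HOXB13 guide and 154 with the control guide (log2 0.17). IFITM3 therefore stood at 3.76 times the level of IFITM2 in the HOXB13-guide library and at 7.02 times with the control guide. The 2 genes share most of their sequence, and how reads were divided between them is uncertain.

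BST2, or tetherin, which holds budding viruses to the cell surface, was the highest effector, at 255 FPKM with the HOXB13 guide and 161 with the control guide (log2 0.66). ISG15, a ubiquitin-like modifier, had 69.8 FPKM with the HOXB13 guide and 48.2 with the control guide (log2 0.53). On the lower side, HERC6, of a family of ubiquitin ligases, had 1.97 FPKM with the HOXB13 guide and 4.71 with the control guide (log2 −0.94). With a pseudocount of 0.1 FPKM its ratio was −1.22 and past 2-fold. IFI35 had 19.7 FPKM with the HOXB13 guide and 34.4 with the control guide (log2 −0.77). IFI27 was at 0.949 FPKM with the HOXB13 guide and 0.833 with the control guide. MX1, an antiviral GTPase used as a sign of the type I response, was listed at 0 in both libraries.

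**Figure D3:**
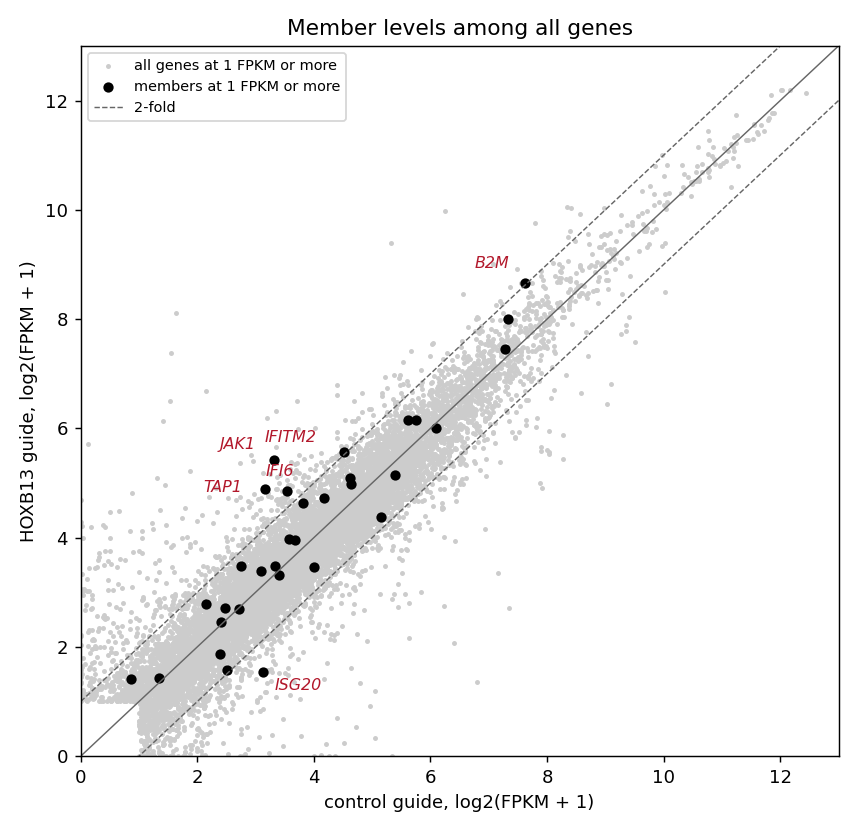
Level in the HOXB13-guide library (vertical axis) against the control-guide library (horizontal axis), both in log2(FPKM + 1), for all 11970 genes at 1 FPKM or more (grey) and the 32 members among them (black). Dashed lines mark 2-fold; 5 members lie on or above the upper line and ISG20 lies below the lower line.

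The IFIT genes, antiviral proteins that bind foreign RNA, had higher values with the HOXB13 guide than with the control guide, where they were close to 0. IFIT1 had 0.789 FPKM with the HOXB13 guide and 0.0233 with the control guide. IFIT2 had 0.413 FPKM with the HOXB13 guide and was listed at 0 with the control guide. IFIT3 had 0.227 FPKM with the HOXB13 guide and 0.0200 with the control guide. IFIT5 had 0.0998 FPKM with the HOXB13 guide and 0.0217 with the control guide. All 4 genes were below 1 FPKM in both libraries, where the pseudocount draws log2 ratios toward 0 and counting error can be large. IFIT1B, which lies among them and was named after its values were seen, was listed at 0 in both.

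In all, 13 members were under 1 FPKM. Of these, 3 were listed at 0 in both libraries and 1 in the control only. Of the 9 above 0 in both, 8 had the higher value in the HOXB13-guide library, and without a pseudocount 7 passed 2-fold upward and none downward. Among all 3086 genes that were above 0 in both libraries and had from 0.05 to under 1 FPKM in the higher of them, 20.5% passed 2-fold upward and 22.6% downward. With a pseudocount of 0.1 FPKM, 4 of the 9 were at least 2-fold higher, against 7.52% of the same 3086 genes. This comparison was added after the data were seen.

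Values this low can rest on few reads. The tables hold no counts, but 308 of 2396 genes under 0.3 FPKM shared the ratio 1.02, which was taken as what 1 read was worth with the HOXB13 guide relative to the control guide. Against that unit, 51.6% of the 2396 genes matched a ratio of small whole numbers and the rest did not, so whole reads could be read for only part of the low genes. Of the low members, OAS3 had a ratio that equalled 44 reads to 3 within a tolerance of 2e-05, and its fold of 15.0 had an exact 95% interval of 4.80 to 75.4. ERAP2 matched 31 reads to 5, with a fold of 6.33 (2.44 to 20.9). Both OAS3 and ERAP2 were above 0.3 FPKM with the HOXB13 guide, so they are not among the genes that gave the unit. NLRC5 matched 16 reads to 5, with a fold of 3.27 (1.14 to 11.4). IFIT5 matched 9 reads to 2, with a fold of 4.59 (0.951 to 43.7), an interval that includes no difference. These are the smallest whole numbers that match. A multiple of them would narrow the intervals, which cover counting error only and not the spread between cultures. HLA-F, IFIT1, IFIT3, IFI27 and IRF7 matched no such ratio.

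Further genes of the same pathways went both ways. Of 37 other interferon-stimulated genes, 13 reached 1 FPKM, and 15 were listed at 0 in both libraries. Of the 13, 2 were at least 2-fold higher, against 4.25% of all genes, and 1 lower, against 4.51%. The median log2 ratio of the 13 was 0.17. The secreted glycoprotein gene LGALS3BP had 20.2 FPKM with the HOXB13 guide and 3.26 with the control guide (log2 2.32). TRIM5, which restricts retroviruses, had 6.57 FPKM with the HOXB13 guide and 1.10 with the control guide (log2 1.85). The chemokine gene CXCL10 was listed at 0 in the HOXB13-guide library and had 2.18 FPKM in the control. HERC5, the ligase for ISG15, had 4.42 FPKM with the HOXB13 guide and 8.26 with the control guide (log2 −0.77).

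Of 16 genes that sense nucleic acids or relay the signal to interferon, 10 reached 1 FPKM, with a median of 0.13. Of the 10, 1 was at least 2-fold higher, against 4.25% of all genes. This was TMEM173, which encodes STING, at 5.62 FPKM with the HOXB13 guide and 1.73 with the control guide (log2 1.28). The kinase gene IKBKE had a log2 ratio of 0.69, SAMHD1, which depletes nucleotides, 0.54, and the helicase gene DDX41 −0.44. Of 12 negative regulators, 11 reached 1 FPKM, with a median of 0.23. Of the 11, 1 was at least 2-fold higher, against the same 4.25% of all genes. This was SOCS1, an inhibitor of Janus kinases, at 2.35 FPKM with the HOXB13 guide and 0.616 with the control guide (log2 1.05). The phosphatase genes PTPN1 and PTPN6 had log2 ratios of 0.72 and 0.65, and the histone methyltransferase gene SETDB1 had −0.43.

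**Figure D4:**
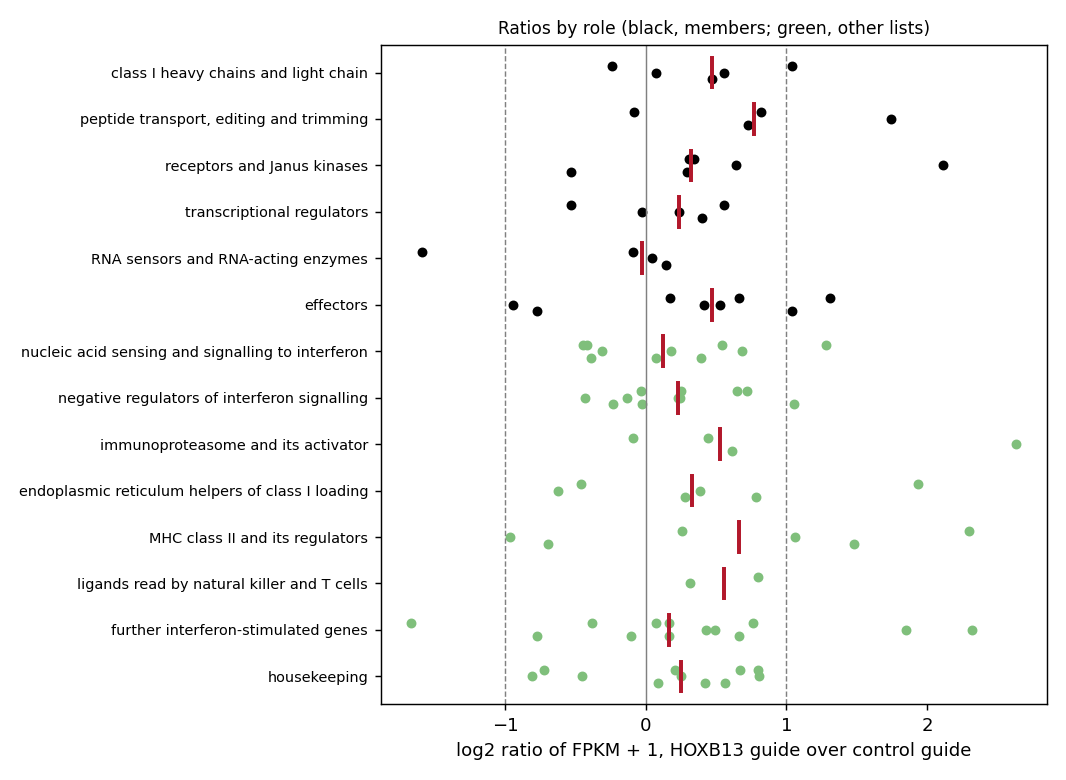
Log2 ratio of FPKM + 1, HOXB13-guide over control-guide library, for genes at 1 FPKM or more, grouped by the roles of the members (black) and by other lists (green); red bars are medians and dashed lines mark 2-fold. Member medians run from −0.02 for RNA sensors and enzymes to 0.77 for peptide transport, editing and trimming, and the housekeeping median is 0.25.

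The target gene and the line were checked. HOXB13 had 4.50 FPKM in the library that carried its guide and 14.6 FPKM in the control. SMARCB1, whose loss marks most rhabdoid tumors, had 0.0577 FPKM with the HOXB13 guide and 0.113 with the control guide, and vimentin (VIM) had 568 and 560 FPKM with the HOXB13 and control guides. The keratin genes KRT8 and KRT18, which rhabdoid cells also express, were under 2-fold higher. KRT8 had 1810 FPKM with the HOXB13 guide and 1273 with the control guide (log2 0.51), and KRT18 had 1572 FPKM with the HOXB13 guide and 1023 with the control guide (log2 0.62).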

How the data were processed

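RNA of 2 samples of G401 was sequenced. Per the labels' protocols, an RNeasy kit gave total RNA, a RiboMinus kit depleted rRNA, and an Ion PI template kit was used for the libraries. The submitters' processing notes name hg19, TopHat, Bowtie and Cufflinks; versions, settings and strand mode are not given in the sources used here, so overlapping and antisense genes cannot be told apart. The authors deposited 1 table of FPKM per library, with 25001 rows of symbol, locus and value, and no counts, so total depth is unknown; from the ratio shared by many low genes the HOXB13-guide library was estimated as 2.05% shallower. Values of 0.001 were read as 0, 3 and 2 rows with failed estimates (none of a member) were left out, and rows of a symbol were summed, which touched 8 members. Table starts count from 0 and are printed from 1.

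Genes at 1 FPKM or more in either library entered the ratio, log2 of FPKM + 1. No test was possible with 1 library per group, so 2-fold is a rule of size. Members and lists were chosen with earlier results of these data known. All members are named, and from each other list up to 4 genes with the largest absolute ratio, beside HOXB13 and the markers of the line; genes outside this rule are said to be so. Sequences are from RefSeq. Computation ran in Python 3.11.15 (pandas 2.3.3, numpy 2.4.6, matplotlib 3.10.9, scipy 1.17.1). Alternatives were the pseudocount, the filter, 5 scalings or centrings and the handling of symbols on several rows.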

Additional observations from a re-analysis of the deposited data

How the results depend on the processing

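The calls were recomputed under 10 alternatives. Under the other 7, the counts of members at least 2-fold higher and lower stayed at 5 and 1, and the median log2 ratio stayed within 0.1 of 0.33. With a pseudocount of 0.1 FPKM 2 members were at least 2-fold lower, against 7.09% of all genes, and with 5 FPKM 0 were, against 1.85%, with a median of 0.22 and IFITM2 at 0.93. Centred on the housekeeping median, 3 members were higher and 3 lower, against 2.61% and 9.11% of all genes, with a median of 0.073, and B2M (0.78) and IFITM2 (0.79) fell short of 2-fold. The cause was not tested. Of 315 recomputed ratios of single members, 308 kept their side of 2-fold, 4 dropped below it, 3 passed it and none of the called ones changed sign. Keeping failed estimates could not be run, as they hold no number. No paired analysis was possible because each group had 1 library. Depth limits the members under 1 FPKM, and culture-to-culture spread is not measured for any value.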

Other observations

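Of 13 genes of MHC class II and its regulators, 6 reached 1 FPKM. Of these 6, 3 that handle class II peptides passed 2-fold upward with the HOXB13 guide, against 4.25% of all genes at that level. CD74, the invariant chain that escorts class II molecules, had 49.3 FPKM with the HOXB13 guide and 9.25 with the control guide (log2 2.29). The peptide exchange factor genes HLA-DMA and HLA-DMB had log2 ratios of 1.06 and 1.48, with HLA-DMB at 4.02 FPKM with the HOXB13 guide and 0.801 with the control guide. None of the 6 was at least 2-fold lower, against 4.51% of all genes. RFXANK, a subunit of the factor that binds class II promoters, had 29.8 FPKM with the HOXB13 guide and 59.2 with the control guide (log2 −0.96). The master regulator CIITA, named after its values were seen, had 0.00136 FPKM with the HOXB13 guide and 0.0105 with the control guide, and HLA-DRA, also named so, was listed at 0 in both.

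Of 11 ligands read by natural killer and T cells, 2 reached 1 FPKM and neither passed 2-fold. The stress ligand MICA had 20.3 FPKM with the HOXB13 guide and 11.2 with the control guide (log2 0.80), and MICB had 9.83 FPKM with the HOXB13 guide and 7.71 with the control guide (log2 0.31).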
